A study of Mus musculus with 14 samples.

Results

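The genes described here encode the actin, myosin, tubulin and dynein cytoskeleton and were followed across 14 single mouse bone cells. They were chosen by gene symbol alone: actins, actinins and actin-related proteins, subunits of the Arp2/3 complex, cofilins, profilins, capping protein, thymosins, tropomyosins, myosin heavy, light and unconventional chains, tubulins, and the chains of cytoplasmic dynein. The symbols matched 80 of the 9558 gene rows in the table, and all 80 had their gene ID in the GENCODE M21 annotation of GRCm38. Tmsb4x, Actg2 and Myh14 were not analysed here. The symbols also bring in genes that are not structural parts of the cytoskeleton, such as Actr6 and Actr8, whose proteins belong to chromatin-remodelling complexes.

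All 14 cells were bone cells of adult C57BL/6 mice with the genotype Prrx1-CreERT;Tomato, which carry a tamoxifen-dependent Cre recombinase under the Prrx1 promoter and a Tomato reporter that recombination turns on. Tamoxifen was given by injection at 2 mg per 30 g of body weight, 1 dose a day for 3 days. Tibiae, radii and ulnae were flushed free of marrow and treated with collagenase, and Tomato-positive cells were sorted, then picked one at a time under a fluorescence microscope. The labels give 1 genotype, 1 treatment and no animal, so the cells form 1 sample, and every value is a description of these cells without a test. Reporter activity marks a cell whose lineage used the Prrx1 promoter at the time of tamoxifen, and does not by itself name a cell type.

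Actin monomers assemble into filaments that give a cell its shape and cortex. Nucleators such as the Arp2/3 complex start new branches, cofilin severs old filaments, profilin and thymosins bind monomers, capping protein closes filament ends, and tropomyosins coat filaments and set which myosins can use them. Non-muscle myosin II pulls actin filaments together, while the unconventional myosins carry cargo or tie membranes to actin. Microtubules are built from dimers of alpha- and beta-tubulin, and cytoplasmic dynein walks along them toward their minus ends with cargo held by its intermediate and light chains.

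Levels are log2(FPKM + 1) after a normalization that gave every cell the same distribution of values. FPKM is a read count per length of transcript and per depth of library, and a level of 1 or more was counted as detected, which gave 5066 detected rows in each cell. A level therefore ranks a gene within its cell. A level of 0 can be a transcript missed in that cell, and the depth of the libraries is unknown. By which rows lay at 0, the cells fell into a larger set of 9 (cells 1, 2, 5, 6, 7, 8, 9, 10 and 14) and a smaller set of 5. Cells 11 and 14 also stood apart in cell type markers. The mean of 7 leukocyte markers was 9.21 in cell 11 and 9.56 in cell 14, with cell 8 next at 6.69 and the lowest value, 1.08, in cell 4. Ptprc (CD45, the pan-leukocyte surface antigen) reached 8.31 in cell 11, whereas cell 14 had 6.51, cell 8 had 3.27 and the other cells 1.21 or less. The mean of 8 fibroblast matrix genes ran from 5.62 in cell 14 to 11.55 in cell 9, and cell 11 had 9.39.

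The cytoskeleton genes were detected more broadly than the rows of the table as a whole. Of the 80 genes, 56 (70.0%) were detected in at least 7 of the 14 cells, against 51.7% of all 9558 rows, and 33 (41.2%) were detected in all 14 cells, against 15.8%. The remaining 23 of these 56 were found in 7 to 13 cells, 24 genes were found in fewer than 7, and 12 of those in 1 to 3 cells. Levels were also higher. The median of the 80 gene medians was 2.76 against 0.96 over all rows, 31 genes had a median of 5 or more (38.8%, against 12.1% of rows), and 9 had a median of 8 or more (11.2%, against 3.37%). The median SD between cells was 1.72 against 1.75, but these medians do not compare rows of like level. Among rows with a mean within 1 of its own, 23 of 385 had a smaller SD than the cofilin gene Cfl1. For the tropomyosin gene Tpm1 the count was 575 of 629, so the spread differed between the genes.

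The 56 genes detected in at least 7 of 14 cells became 53 in the larger set of cells and 57 in the smaller set when detection in at least 50% of the cells was required, against 49.4% and 50.6% of rows. Without cells 11 and 14, the number was 56. The mean over all 80 genes was 3.88 in the median cell and ran from 3.35 in cell 3 to 4.34 in cell 4, while the mean over all rows was 2.37 in every cell. The number of cytoskeleton genes detected per cell ran from 49 in cell 3 to 60 in cells 5 and 6. Which genes were present differed from cell to cell, as the map of levels by gene and cell shows. A high level in few cells, 5 or more in at least 1 cell but below detection in at least 7, was seen for 16 of the 80 genes (20%), against 29.5% of rows.

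**Figure D1:**
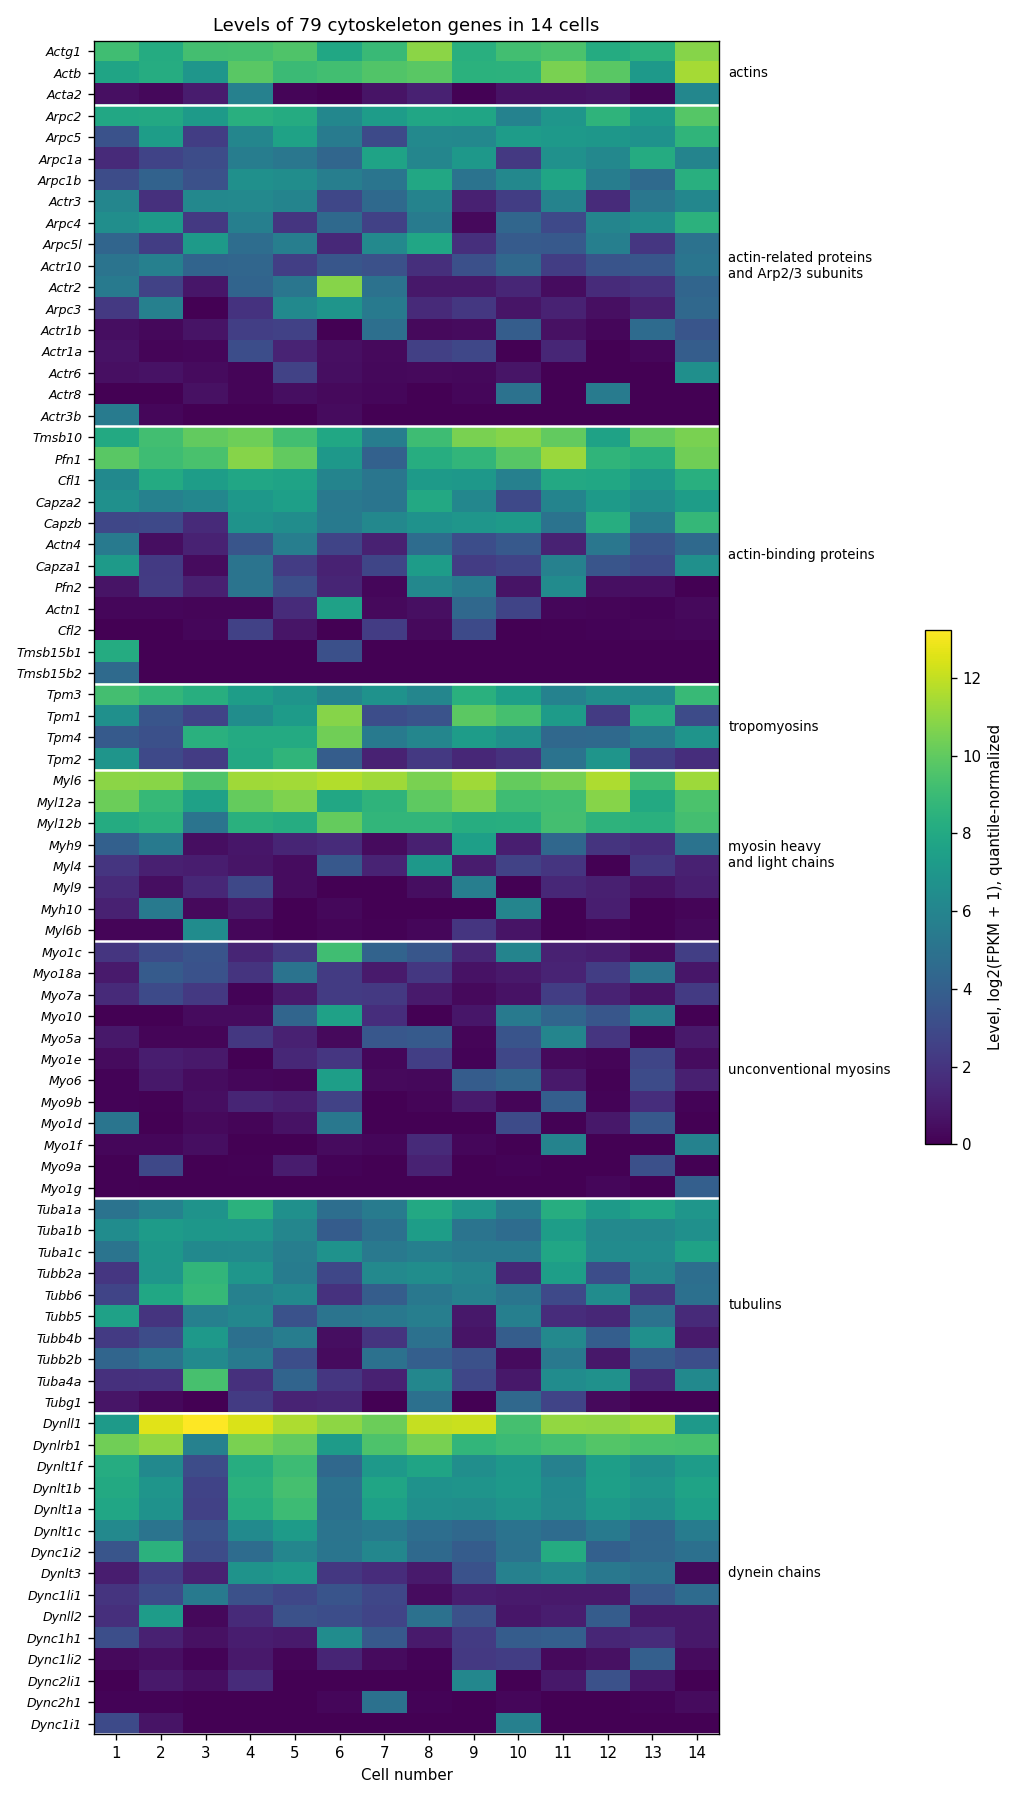
Level of 79 of the 80 cytoskeleton genes (rows, in italics) in each of the 14 cells (columns), in log2(FPKM + 1), with lighter colours for higher levels and white lines between gene groups. Actb, Actg1, Myl6, Myl12a, Myl12b, Dynll1 and Dynlrb1 form bright rows across the cells, whereas most unconventional myosins are bright in a few cells, with Myo1c at 9.18, Myo10 at 7.57 and Myo6 at 7.41 in cell 6.

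Transcript length and level moved together in part. Across the 80 genes, the Spearman correlation of level with transcript length was -0.38, and across 9544 rows it was -0.24. FPKM divides by length, and the library kit reads the 3' end of a transcript, so the division can lower long genes against short ones. With the division undone the correlation across the 80 genes was -0.21. The unconventional myosins had a median length of 7297 bases, and the heavy chain genes were as long or longer, with 7433 bases for Myh9, 7791 for Myh10, 14342 for Dync1h1 and 14264 for Dync2h1. Levels of these genes may therefore be lowered against those of the shorter light chain genes, and the part of length in their levels was not tested.

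The promoters of these genes were read for a shared feature, since many actin and myosin genes are known targets of serum response factor, which binds the CArG box. RefSeq windows of 300 bases on GRCm38.p6, from 250 bases before to 50 after a transcript start, were found for 66 of the 80 genes and gave 78 windows. A CArG box on either strand was found in 5 windows (6.41%) of 5 genes, compared with 1.41% of 9425 windows of all genes in the table and 1.63% of 32851 windows in all. These windows are printed because they hold the 5 matches, written 5′ to 3′ on the gene's strand with up to 25 bases on each side and the box in capitals.
Actg1, chr11:120348551-120348610, minus strand: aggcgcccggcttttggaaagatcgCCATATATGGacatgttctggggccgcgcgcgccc
Myl6, chr10:128493025-128493084, minus strand: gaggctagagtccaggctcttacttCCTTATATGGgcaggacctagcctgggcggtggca
Myl9, chr2:156775278-156775337, plus strand: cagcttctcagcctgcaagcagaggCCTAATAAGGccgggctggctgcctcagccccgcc
Myo1e, chr9:70207293-70207349, plus strand: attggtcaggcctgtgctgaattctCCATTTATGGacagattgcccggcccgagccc
Arpc4, chr6:113377863-113377897, plus strand: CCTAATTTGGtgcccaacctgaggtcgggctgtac
The box began 90 bases before the start in Actg1, 50 in Myl6, 161 in Myl9, 32 in Myo1e and 250 in Arpc4, where it lies at the edge of the window. Myl6 had the box in 1 of its 2 windows. The motif GGGCGG, read on both strands, was found in 60 of the 78 windows (76.9%), against 62.2% of windows of table genes and 35.7% of all windows, and it overlapped none of the 5 boxes.

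The 5 genes with a box had very different levels. Actg1 and Myl6 were among the 9 cytoskeleton genes with a median of 8 or more. Arpc4 was found in 13 cells at a median of 5.01, Myl9 in 7 cells with a median of 0.88, and Myo1e in 6 cells with a median of 0.67. Srf, which encodes serum response factor, was itself detected in 3 cells and reached 2.76 in cell 9.

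The cytoplasmic actins were the main actins in every cell. Actb, the gene of beta-actin (chromosome 5, 142903115 to 142906754, minus strand), ran from 6.92 in cell 3 through a median of 9.12 to 11.43 in cell 14, with an SD of 1.28. Actg1, the gene of gamma-actin (chromosome 11, 120345690 to 120348542, minus strand), ran from 7.85 in cell 6 through 9.20 to 10.92 in cell 8, with an SD of 0.93. Actb was high in cells 11 and 14 and low in cells 3 and 13, whereas Actg1 was high in cells 8 and 14. Within a cell, Actb exceeded Actg1 in 8 of 14 cells, and the median difference of 0.06 was small beside its SD of 1.18, so neither gene led. Without cells 6, 8, 11 and 14 the median difference was -0.26.

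Acta2, the smooth muscle alpha-actin gene (chromosome 19, 34241090 to 34255590, minus strand), was a gene of few cells. It was detected in 4 of 14 cells (28.6%, exact Clopper-Pearson 95% interval 8.4% to 58.1%, for counting error only), namely cell 14 at 6.13, cell 4 at 5.80, cell 8 at 1.19 and cell 3 at 1.02, and its median was 0.65. Cells 4 and 14 were thus well above the rest. Actb exceeded Acta2 in all 14 cells, by 8.14 in the median cell. Other smooth muscle and pericyte genes were not high in cells 4 and 14 together: Tagln, which encodes the actin-bundling protein transgelin, was at 2.68 in cell 4 and 0.00 in cell 14, Cspg4 at 2.39 and 0.00, and Mcam at 0.00 in both. Tagln was instead highest in cell 1, at 5.90, where Acta2 was at 0.54. Besides cells 1 and 4, Tagln was detected in cell 8 at 4.52, cell 3 at 1.57 and cell 12 at 1.05. Tagln, Cspg4 and Mcam are the 3 of 11 genes on the smooth muscle list that have a row outside the 80 genes. Each was detected in fewer than 7 cells. Their mean ran from 0.00 in cells 10 and 14 to 2.16 in cell 12, with 1.69 in cell 4. Tpm2 and Myl9 are also on the smooth muscle list but belong to the 80 genes. In cell 4 they were at 8.0 and 2.89, and in cell 14 at 1.74 and 1.13.

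The 10 Arp2/3 subunit genes, which encode the complex that starts branched actin, were detected in at least 7 cells in 9 cases and in all 14 cells in 6. Arpc2 was the steadiest, from 5.84 in cell 10 through a median of 7.78 to 9.73 in cell 14. Arpc5 had a median of 6.48, Arpc1a 5.77, Arpc1b 5.63 and Actr3 5.55. Arpc1b ran from 3.06 in cell 1 to 8.34 in cell 14, with 7.93 in cell 8 and 7.78 in cell 11. It was high in the same cells as Actb, and the Spearman correlation between Actb and Arpc1b over the 14 cells was 0.89, the highest of 4931 rows compared with Actb.

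Actr2, which encodes the Arp2 subunit, was uneven, with 0.42 in cell 11, a median of 2.23 and 10.84 in cell 6. The next cell was cell 1 at 5.41, so cell 6 stood alone. Arpc3 ran from 0.00 in cell 3 to 6.91 in cell 6, and Arpc4 from 0.34 in cell 9 to 8.48 in cell 14. Actr3b, the gene of a variant of the Arp3 subunit, was detected in cell 1 alone, at 5.48. Where 2 genes encode alternative subunits, Arpc1b exceeded its paralogue Arpc1a in 10 cells, by 1.16 in the median cell, and Arpc5 exceeded Arpc5l in 10 cells, by 2.69. The exceptions were cells 3, 7, 8 and 1 for Arpc5, where Arpc5l was higher.

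Of the 5 remaining actin-related genes, Actr10, a subunit of the dynein cofactor dynactin, was present in all 14 cells at a median of 3.55. The other two dynactin genes of this group, Actr1a and Actr1b, were each detected in 6 cells. Actr6 reached 6.56 in cell 14, and Actr8 reached 5.49 in cell 12 and 4.97 in cell 10, while each was below 1 in 12 cells. Cell 14 held the highest value of 6 of the 15 actin-related and Arp2/3 genes: Arpc1b, Arpc2, Arpc4, Arpc5, Actr1a and Actr6. Over all rows, cell 14 held the highest value in 8.09%. Leukocyte markers were also highest in cell 14, and their part in these levels was not tested.

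Among the actin-binding proteins, Tmsb10, Pfn1 and Cfl1 were found in every cell at high levels. Tmsb10, which encodes the monomer-binding thymosin beta-10, had a median of 9.62, from 5.58 in cell 7 to 10.81 in cell 10. Pfn1, the ubiquitous profilin gene, had a median of 9.26, from 4.08 in cell 7 to 11.21 in cell 11. Cfl1, the non-muscle cofilin gene, had a median of 7.28, from 5.18 in cell 7 to 8.36 in cell 14. Cell 7 was the lowest cell for all 3 genes. In every cell Pfn1 exceeded Pfn2, by 6.82 in the median cell, and Cfl1 exceeded the muscle cofilin gene Cfl2, by 6.85. Pfn2 was nevertheless at 5 or more in cells 4, 8, 9 and 11, with 6.36 in cell 11.

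The 3 capping protein genes were present in most cells. Capza2 and Capzb, for an alpha and the beta subunit, were each present in all 14 cells at a median of 6.32, and Capza1 in 13 cells with a median of 2.89. Capza2 exceeded Capza1 in 13 cells, by 2.95 in the median cell, and cell 1 was the exception. The crosslinker gene Actn4 was detected in 13 cells, from 0.51 in cell 2 through 3.49 to 5.68 in cell 5. Its paralogue Actn1 was detected in 4 cells: cell 6 had 7.56, cell 9 had 4.49, cell 10 had 2.69 and cell 5 had 1.63. Actn4 exceeded Actn1 in the 12 cells other than cells 6 and 9. Tmsb15b1 and Tmsb15b2, a pair of thymosin genes, were highest in cell 1, at 8.13 and 4.55, and Tmsb15b1 was also detected in cell 6, at 3.22. Some of these levels are uncertain because other genes hold the same stretches of 50 bases at their 3' ends. Such stretches made up 61.9% of the last 500 transcript bases in Tmsb10, 50.6% in Capza1, 59.2% in Tmsb15b1 and 69.6% in Tmsb15b2, as well as 57.4% in the tropomyosin gene Tpm3 and 41.5% in Actr3. Tmsb15b1 and Tmsb15b2 share such stretches with each other and with Tmsb15l, so their levels in cell 1 are not separate measurements.

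All 4 tropomyosin genes were detected in all 14 cells, and they differed in which cells were high. Tpm3 had the narrowest range, from 5.86 in cell 11 through 7.10 to 9.25 in cell 1, with an SD of 1.18. Tpm4 ran from 3.25 in cell 2 through 6.37 to 10.33 in cell 6. Tpm1 had an SD of 2.95, with 2.32 in cell 12, a median of 6.56 and its highest levels in cells 6, 9, 10 and 13, at 10.82, 9.90, 9.32 and 8.19. Tpm2 had a median of 2.68 and was high in other cells than Tpm1, with 8.65, 8.0, 6.91 and 6.89 in cells 5, 4, 1 and 12.

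The highest tropomyosin therefore changed from cell to cell. Tpm4 exceeded Tpm1 in 7 cells and Tpm3 exceeded Tpm1 in 8, while Tpm2 exceeded Tpm1 in 4. Tpm1 had a Spearman correlation of 0.49 over the 14 cells with the mean of 6 osteoblast markers. That mean was 7.87 in cell 10, 6.95 in cell 13 and 5.72 in cell 6, all cells with high Tpm1, but 1.96 in cell 9, where Tpm1 was at 9.90.

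**Figure D2:**
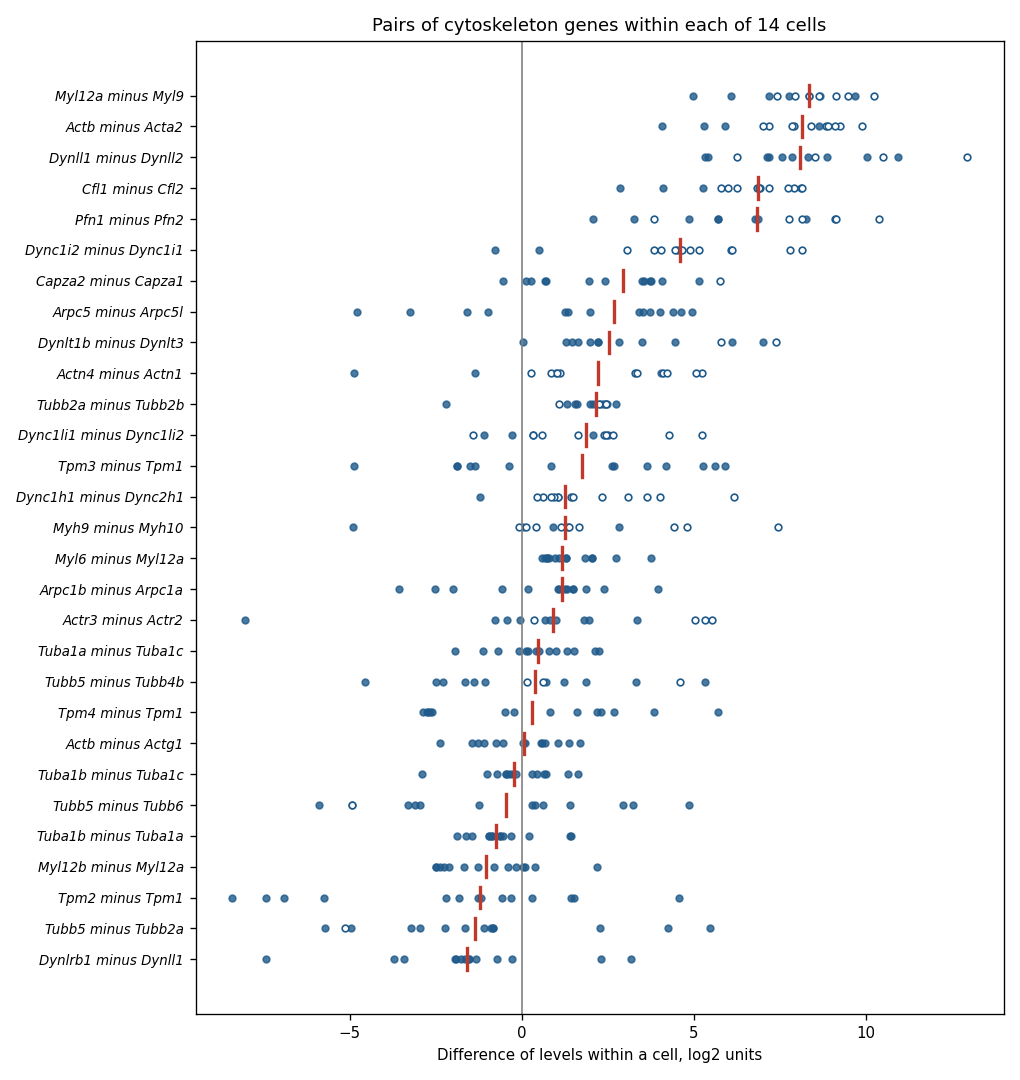
Difference of 2 gene levels within a cell, in log2 units, for 29 pairs of related genes, with 1 point per cell, a filled point where both genes were detected, an open point where at least 1 was not, and a red bar at the median of 14 cells. Myl12a lies above Myl9, Actb above Acta2, Dynll1 above Dynll2, Cfl1 above Cfl2 and Pfn1 above Pfn2 in all 14 cells, whereas Actb against Actg1 and the tropomyosin and beta-tubulin pairs spread to both sides of 0.

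The non-muscle myosin II light chain genes Myl6, Myl12a and Myl12b each had a median of 8 or more. Its long heavy chain genes had medians of 1.65 and 0.23, and the part of the division by length in this was not tested. Myl6, the essential light chain gene, ran from 9.11 in cell 13 through 11.10 to 11.70 in cell 6. By mean level it was number 21 of all 9558 rows. Its SD was 0.78, and 7 of the 61 rows with a mean within 1 of its own had a smaller SD. The regulatory light chain genes Myl12a and Myl12b, which lie side by side on chromosome 17, had medians of 9.35 and 8.42. Myl12a ran from 7.55 in cell 3 to 10.81 in cell 12, and Myl12b from 5.07 in cell 3 to 10.11 in cell 6. Myl12a exceeded Myl12b in 10 of 14 cells, and the smooth muscle light chain gene Myl9 in all 14, by 8.34 in the median cell. Myl9 itself was highest in cell 9, at 5.64.

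Myh9, the heavy chain gene of myosin IIA, passed the detection level in 11 of 14 cells (78.6%, with an exact 95% interval of 49.2% to 95.3%), from 0.40 in cell 7 through 1.65 to 7.45 in cell 9. Myh10, for myosin IIB, passed it in 4 cells, and was highest in cells 10 and 2, at 6.04 and 5.41. Myh9 exceeded Myh10 in 12 cells, though both were detected in only 4 cells. In cell 10 Myh10 was clearly the higher, with Myh9 at 1.13, and in cells 3, 4 and 7 both were below detection. Myl4, known as an atrial and embryonic muscle light chain, was detected in 11 cells at a median of 1.25 and reached 7.04 in cell 8. Myl6b reached 6.41 in cell 3 and was detected otherwise only in cell 9.

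The 13 unconventional myosin genes were the least broadly detected of the gene groups. Of these, 6 passed the detection level in at least 7 cells, a share near the 51.7% of all rows. In all 14 cells 0 did so, against 15.8% of rows. Myo1c, a membrane-tethering class I myosin, was found in 13 cells at a median of 2.32. Myo10, which encodes the filopodial motor, was detected in 7 cells, with 7.57 in cell 6, 5.70 in cell 13 and 5.47 in cell 10. Myo6, the motor that walks toward the pointed end of actin, had 7.41 in cell 6 and 4.34 in cell 10. Myo5a, a vesicle carrier, was highest in cell 11 at 6.04.

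Cell 6 held the highest value of 5 of these 13 genes, among them Myo1c, Myo1d, Myo6 and Myo10, and of 13 of all 80 genes (16.2%), against 10.1% of rows. Its mean over the unconventional myosins was 3.73, compared with 2.47 in cell 13, the next highest, and a median of 1.36. Cell 6 also had the highest mean of 7 neutrophil markers, at 10.74, against 8.93 in cells 11 and 14. Of these markers, only Mpo at 11.25 and Elane at 8.13 were highest in cell 6. Camp, Ngp and Lcn2 were highest in cell 11, Ltf in cell 14 and Retnlg in both. Cell 6 had the third highest osteoblast mean, and the part of these cell types in its levels was not tested. It was the highest cell for Tpm1, Tpm4, Actr2, Actn1, Dync1h1 and Myl6 as well.

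Myo1f and Myo1g, class I myosins best known from blood cells, were found in cells with high leukocyte markers. Myo1f was detected in 3 cells (21.4%, exact 95% interval 4.7% to 50.8%), with 5.91 in cell 11, 5.84 in cell 14 and 1.55 in cell 8, and was at 0.49 or less elsewhere. Those were the 3 cells with the highest leukocyte marker means. Myo1g was detected in cell 14 alone, at 4.01.

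**Figure D3:**
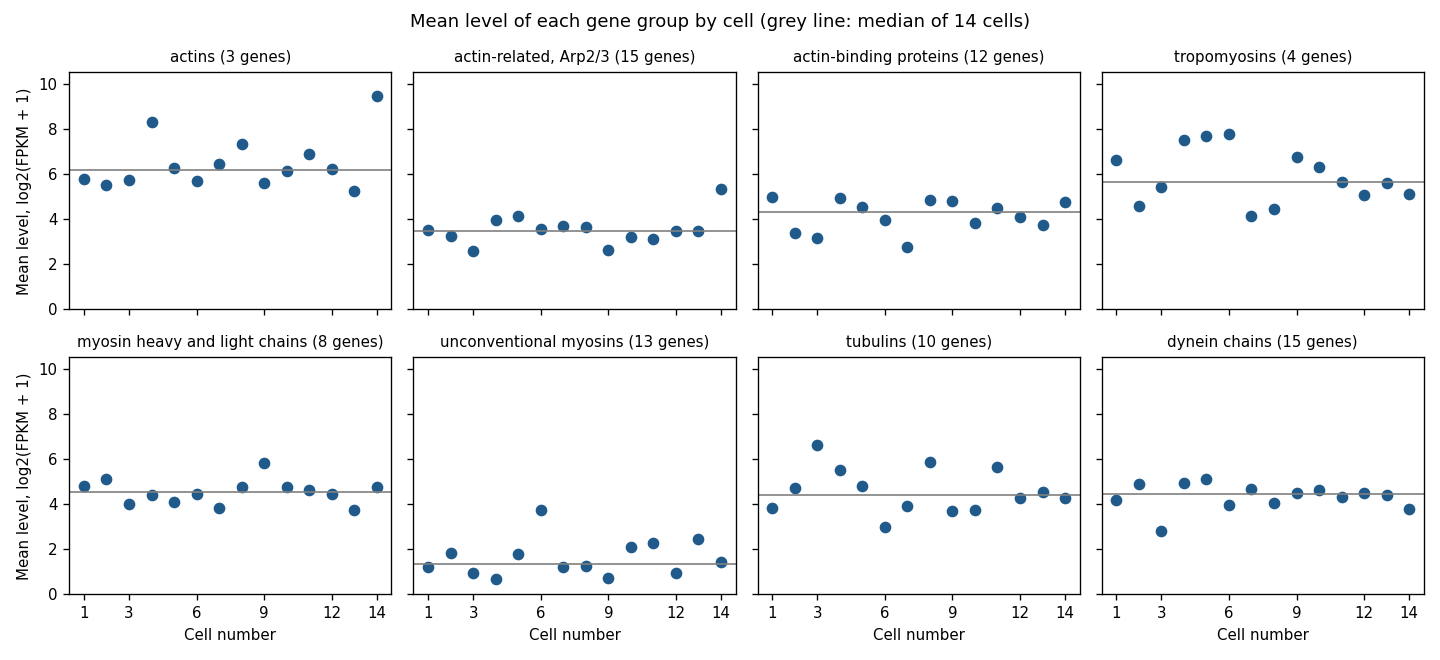
Mean level of each gene group, in log2(FPKM + 1), in cells 1 to 14, with 1 point per cell and a grey line at the median of the cells. Actin-related and Arp2/3 genes are highest in cell 14 at 5.34, tropomyosins in cell 6 at 7.75, unconventional myosins in cell 6 at 3.73, and tubulins in cell 3 at 6.62, which is also the lowest cell for dynein chains at 2.79.

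Of the 10 tubulin genes, 9 were found in at least 7 cells, and 5 of them in every cell. The alpha-tubulin genes Tuba1a, Tuba1b and Tuba1c, neighbours on chromosome 15, had medians of 6.86, 6.33 and 6.31 and were detected in every cell. Tuba1a exceeded Tuba1b in 11 cells and Tuba1c in 10. These differences are uncertain, since 56.3%, 63.6% and 68.3% of the 50-base stretches in the last 500 transcript bases of the 3 genes also occur in other genes, where 3'-end reads cannot be assigned to a single copy. Tuba4a, a more divergent alpha-tubulin gene, ran from 0.84 in cell 10 through 2.46 to 9.35 in cell 3.

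Of the 5 beta-tubulin genes, 4 were highest in the same cell. Tubb2a had a median of 6.04, Tubb6 5.20, Tubb5 5.03, Tubb4b 3.92 and Tubb2b 3.90. Tubb5 was highest in cell 1, at 7.57, where Tubb2a and Tubb6 were at 2.11 and 2.73. In cell 3, Tubb6 was at 8.85, Tubb2a at 8.71, Tubb4b at 7.12 and Tubb2b at 6.31, which were the highest values of all 4 genes. With Tuba4a, cell 3 thus held the highest value of 5 of the 10 tubulin genes, while it held that of 9.08% of all rows. Tubg1, the gamma-tubulin gene of the microtubule-organizing centre, was detected in 6 cells, the highest of which were cell 8 at 4.89 and cell 10 at 4.45.

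The tubulin genes were compared with each other over the cells. Over the 36 pairs of the 9 tubulin genes detected in at least 7 cells, the median Spearman correlation was 0.34 and 25% of pairs reached 0.5 or more. The same figures were 0.05 and 6.30% over 1540 pairs of cytoskeleton genes, 0.10 and 2.78% over 36 pairs of Arp2/3 subunits, and 0.01 and 5.53% over all rows detected as broadly. The 32 tubulin pairs that shared no 50-base stretch from the last 500 transcript bases of either gene had a median of 0.33. Of these pairs, 21.9% reached 0.5. Stretches outside both 3' ends were not compared. The pair Tubb2a and Tubb2b had the highest value among tubulins, 0.85, with 41.0% of the stretches of Tubb2a found in Tubb2b. These are descriptions over 14 cells that share a library type and a common distribution of values.

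All 8 dynein light chain genes were detected in at least 7 cells, as were 3 of the 7 genes for heavy, intermediate and light intermediate chains, against 51.7% of all rows. Of the 8, 4 are Dynlt1 copies that share sequence, and the 7 include the dynein 2 genes Dync2h1 and Dync2li1. Dynll1, a light chain gene whose protein also binds many partners outside dynein, had the highest median of the 80 genes, 11.21, and by mean was number 19 of all rows. It ran from 7.09 in cell 14 and 7.18 in cell 1 to 13.22 in cell 3. Dynlrb1, a roadblock light chain gene, had a median of 9.47. It was lowest in cell 3 at 5.79 and was at 10.57 in cell 4, just under its highest level in cell 2. Cell 3 was so the highest cell for Dynll1 and the lowest for Dynlrb1. Dynll1 exceeded its paralogue Dynll2 in all 14 cells, by 8.07 in the median cell.

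The Tctex-type light chain genes Dynlt1a, Dynlt1b, Dynlt1c and Dynlt1f lie together on chromosome 17, between 6306340 and 6655900, and had medians of 6.79, 7.01, 5.10 and 7.06. Their levels moved together, with a median pairwise correlation of 0.88 and values lowest in cell 3 and highest in cell 5 for all 4. Dynlt1b, Dynlt1c and Dynlt1f cannot be read as separate measurements: 88.9% of the 50-base stretches at the end of Dynlt1b also occur in Dynlt1a and 88.9% in Dynlt1c. The last 500 bases of the annotated transcript of Dynlt1a itself share 0.0% of their stretches with other genes, so the shared part of Dynlt1a lies elsewhere in its transcripts. Dynlt3, a separate gene of this family, was found in 12 cells at a median of 2.89 and was below Dynlt1b in all 14.

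The intermediate chain gene Dync1i2 was detected in all 14 cells, from 3.05 in cell 3 through 4.78 to 8.51 in cell 2 and 8.14 in cell 11. Dync1i1, the form known from neurons, was detected in cells 10 and 1 only, at 5.76 and 2.95, and exceeded Dync1i2 in cell 10. Dync1h1, the motor-bearing heavy chain gene, was detected in 10 cells, from 0.61 in cell 3 through 1.53 to 6.41 in cell 6. Dync1li1 was detected in 10 cells and its paralogue Dync1li2 in 4. The first exceeded the second in 11 cells, among them cells 8, 11 and 12, where both were below detection. Of the genes of dynein 2, the motor of cilia, Dync2h1 was detected in cell 7 alone, at 4.93, and Dync2li1 in 3 cells with 6.11 in cell 9.

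Whole assemblies were then counted within each cell, with alternative subunits counted as 1 position. Both positions of capping protein and of the tubulin dimer were detected in all 14 cells. The 3 positions of non-muscle myosin II were detected together in 11 cells, and a heavy chain was the missing position in the rest. All 7 positions of Arp2/3 were detected together in 8 cells, with Actr2 found in 10 cells, Arpc3 in 11, Arpc4 in 13 and the others in 14. All 6 positions of dynein 1 were also detected together in 8 cells, with the heavy chain Dync1h1 found in 10. The Arp2/3 count was 2 and the dynein count 2 when an FPKM of 5 was required, and 13 and 14 when any value above 0 was accepted.

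Genes of the wider pathway were taken from lists of regulators outside the 80. Of 156 such genes with a row, 108 (69.2%) were found in at least 7 cells, and 39 (25%) in every cell, against 51.7% and 15.8% of all rows. Severing and monomer-binding proteins were found in at least 7 cells for 13 of 15 genes, crosslinkers for 16 of 20 and membrane linkers for 13 of 17. The counts were 12 of 21 among nucleation and elongation factors, 16 of 28 among microtubule assembly and binding proteins, and 12 of 20 among kinesins, dynactin and dynein adaptors, shares near that of all rows.

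The most abundant of these regulators were Tpt1, Vim, Tbca and Gsn. Vim, the intermediate filament gene of mesenchymal cells, ran from 8.09 in cell 6 through 10.57 to 12.28 in cell 4. Tbca, a chaperone of beta-tubulin, had a median of 9.05. Gsn, which encodes the severing protein gelsolin, ran from 6.43 in cell 5 through 8.17 to 13.82 in cell 8. Dstn, the gene of the cofilin relative destrin, had a median of 7.95, above the 7.28 of Cfl1. Among the small GTPases, Cdc42 had a median of 7.12, Rhoc 6.57, Rac1 5.74 and Rhoa 4.84. The kinase genes Rock2 and Limk2, upstream of myosin light chain and cofilin phosphorylation, were detected in 11 and 14 cells, and Rock1 in 5. Dctn1, for the large dynactin subunit, was detected in 6 cells, whereas Dctn2 and Dctn5 were detected in all 14.

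Some regulators known from blood cells, named after their values were seen, were compared in cells 11 and 14, which had high leukocyte markers, and they did not all follow them. Rac2 was at 9.04 in cell 14 and 8.22 in cell 11. Lcp1, for the leukocyte bundling protein L-plastin, was at 8.47 in cell 14 but at 3.10 in cell 11, below its median of 3.16. Was, for the Wiskott-Aldrich syndrome protein, was highest in cell 6 at 5.74, with 3.67 in cell 11 and 2.89 in cell 14. The formin gene Fmnl1 was highest in cell 2 at 4.17, with 3.59 in cell 8, 2.75 in cell 14 and 0.00 in cell 11. Arhgdib had a median of 5.42 and reached 10.75 in cell 14 and 10.06 in cell 11. Coro1a, which was itself 1 of the 7 leukocyte markers, was at 6.11 in cell 11 and 5.79 in cell 14.

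The 80 genes were set beside the marker means of each cell. The mean over all 80 had a Spearman correlation of -0.04 with the leukocyte mean, 0.11 with the macrophage mean, -0.33 with the osteoblast mean and -0.53 with the fibroblast matrix mean over the 14 cells. With cells 6, 8, 11 and 14 left out, the leukocyte value was -0.77 and the fibroblast value -0.28 over 10 cells, so these figures rest on a few cells. Among the 62 genes detected in at least 5 cells, 3 (4.84%) reached 0.5 or more with leukocyte markers, against 8.42% of 6220 rows. They were Myl12b at 0.77, Myo7a at 0.67 and Tuba1c at 0.51, and Actb was at 0.48. With fibroblast matrix, 5 genes (8.06%) reached -0.5 or less, against 3.49% of rows, among them Actg1 at -0.68, Arpc1b at -0.61, Cfl1 at -0.56 and Actr3 at -0.56. With osteoblast markers, 8 genes (12.9%) reached -0.5 or less, against 3.89% of rows, with Capza2 at -0.69, Tuba4a at -0.65, Arpc2 at -0.61 and Tubb6 at -0.60 the lowest. Dync1h1 had the highest value with osteoblast markers, 0.81, and 0.67 with fibroblast matrix. With cell cycle markers, 7 genes (11.3%) reached -0.5 or less, against 4.73% of rows. At 0.5 or more there were 0 genes, against 9.73% of rows. With neutrophil markers 5 genes (8.06%) reached 0.5 or more, against 9.98%, and with macrophage markers 3 (4.84%), against 9.15%. The part of cell type in any of these levels was not tested.

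**Figure D4:**
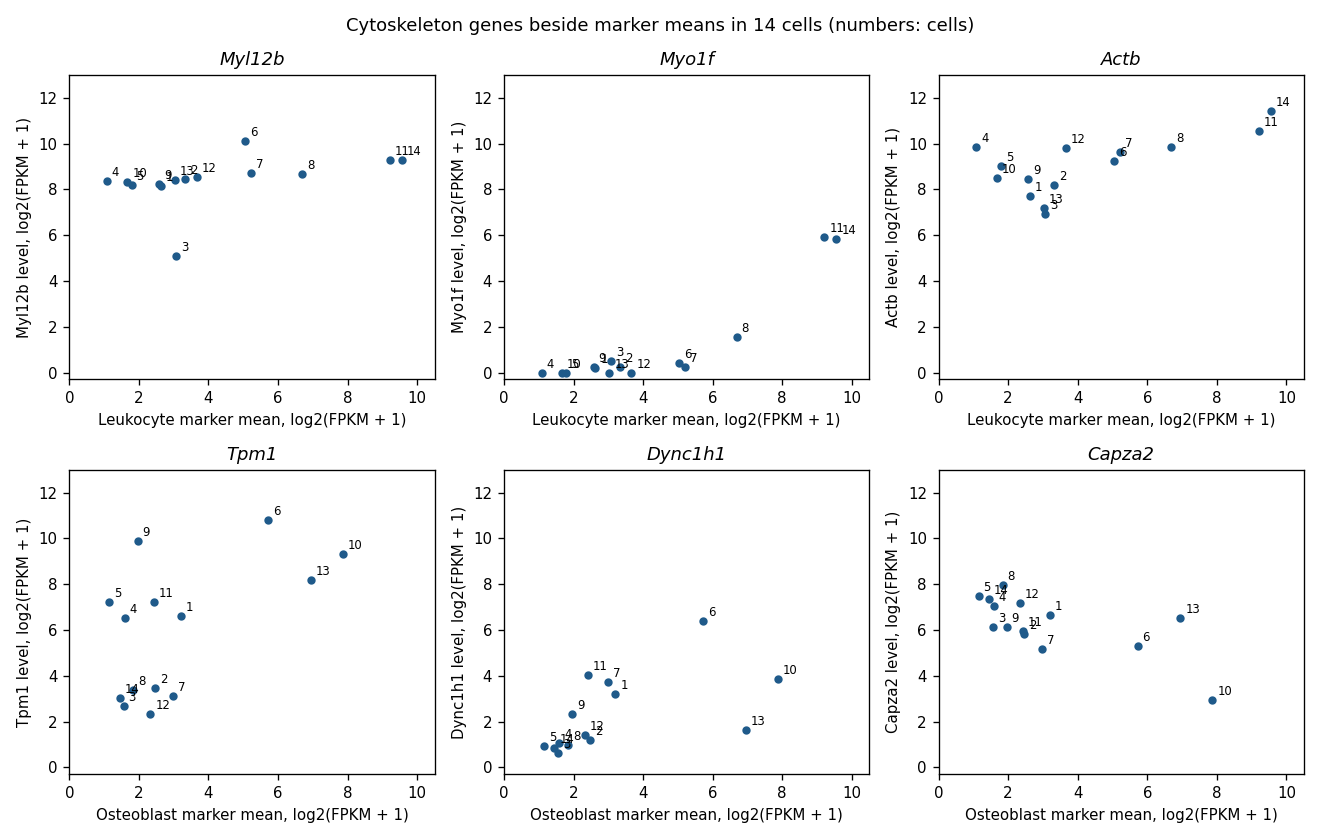
Level of 6 cytoskeleton genes (vertical axis, log2(FPKM + 1)) against the mean of leukocyte markers (upper row) or osteoblast markers (lower row) in each of the 14 cells, with cell numbers beside the points. Myo1f is at 5.91 and 5.84 in cells 11 and 14 and at 1.55 or less elsewhere, and Dync1h1 is highest in cell 6 at 6.41, where the osteoblast mean is 5.72, with 3.85 in cell 10 at a mean of 7.87 and 4.02 in cell 11 at a mean of 2.42.

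For 4 genes, the rows most like them over the 14 cells were listed among rows detected in at least 7 cells. The 3 closest to Actb were Arpc1b at 0.89, Bcl10 at 0.85 and Ninj1 at 0.82. The closest to Acta2 were Lamtor2 at 0.87, Dnase2a at 0.82 and Ly6i at 0.78. Acta2 itself was detected in 4 of 14 cells, so its order over most cells lies below detection. The closest to Tubb5 were Mrps6 at 0.83, Fubp1 at 0.78 and Nudc at 0.75, and to Dynll1 Gfpt2 at 0.83, Smu1 at 0.83 and Krcc1 at 0.82. Each is the top of a list of 4931 rows, or 4932 for Acta2, compared over 14 cells, and is given as a description.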

How the data were processed

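Per the labels' protocols, RNA of 14 single cells was made into libraries with the kits SMART-Seq v4 3' DE and Nextera XT. The submitters' processing notes name TopHat2, Cufflinks and GRCm38, without versions. The authors deposited 1 table of 9558 rows (9549 gene IDs) that is named for FPKM. Its deposited values are on a log2 scale and are read here as quantile-normalized log2(FPKM + 1), from the values alone: the highest was 14.58 in every cell, and at no rank above 0 in all cells did the cells differ by more than 0.0246. The labels and header name neither the logarithm nor the normalization. Such values hide differences in RNA content and depth between cells, and the choice of the 9558 rows is not described in the labels. The depth is unknown, and between 7304 and 8027 rows were above 0 per cell.

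Counts of detected genes (level of 1 or more), medians, ranges, SDs, within-cell differences and Spearman correlations were computed with Python 3.11.15, pandas 2.3.3, NumPy 2.4.6 and SciPy 1.17.1, and drawn with matplotlib 3.10.9. The detection count, the within-cell difference and the CArG box search were checked on planted values with known answers. This checks the code for those steps alone, and the other calculations were not checked in this way. Exact intervals are at 95%. Means of a list over a cell use all its genes that have a row and are not among the 80. Transcript lengths, positions and 3'-end sequences came from GENCODE M21 (GRCm38), and promoters from RefSeq. The 78 promoter windows were checked against transcripts, and 74 matched as written. All cells form 1 group and 1 sample, so no test was made. The genes, lists and pairs were chosen with earlier results of these data known. Any of the 80 genes could be named, of which 1 is not reported here by name or level, as is 1 list of regulators; others were named from the lists or, for Actb, Acta2, Tubb5 and Dynll1, as the 3 rows most like them. Alternatives were other detection levels, a pseudocount of 10, length division undone, broadly detected genes, pairs with both genes detected, and cells left out.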

Additional observations from a re-analysis of the deposited data

How the results depend on the processing

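Of the counts by gene group, 50 of 56 alternatives stayed within 1.5 times, and 76 of 87 pair alternatives kept the sign. At an FPKM of 10, genes detected in at least 7 cells numbered 37 (21.5% of rows) and in all 14 cells 15 (4.24%), regulators 61, dynein chains 7, myosin heavy and light chains 3 (also 3 at an FPKM of 5) and unconventional myosins 0 (0 at 5). Any value above 0 gave 55 in all 14 cells (46.0% of rows) and 12 unconventional myosins. The median cell mean was 5.24 with a pseudocount of 10 (rows 4.33), 5.11 over genes detected in at least 7 cells (3.71) and 4.86 with length division undone (3.22). Whole complexes were found at above 0, FPKM 5 and FPKM 10 in 13, 2 and 1 cells for Arp2/3, 14, 2 and 0 for dynein 1, and, at 5 and 10, in 6 and 6 for myosin II. In cells with both genes detected, median differences were -1.06 for Tubb5 minus Tubb4b over 11 cells and 0.29 for Tubb5 minus Tubb6 over 13. The next 6 pairs rest on 1 to 4 cells each. Their median differences were 5.60 for Actb minus Acta2, 4.09 for Cfl1 minus Cfl2 and -0.19 for Actn4 minus Actn1. For dynein chains they were -0.13 for Dync1i2 minus Dync1i1, -0.29 for Dync1li1 minus Dync1li2 and -1.22 for Dync1h1 minus Dync2h1. With length division undone, Tpm4 minus Tpm1 was -0.14, Tubb5 minus Tubb6 0.00 and Dync1h1 minus Dync2h1 3.94. Without cells 6, 8, 11 and 14, differences were -0.26 for Actb minus Actg1, 0.05 for Tuba1b minus Tuba1c and -0.45 for Tubb5 minus Tubb4b, and the correlation of the 80-gene mean was -0.77 with leukocyte, -0.60 with neutrophil, -0.47 with macrophage, -0.28 with fibroblast matrix, -0.02 with osteoblast, 0.23 with skeletal muscle, -0.62 with endothelial and -0.55 with cell cycle lists. The causes of these changes were not tested. The sets of cells by rows at 0 were chosen after seeing the data. No paired analysis was possible because the cells form 1 group.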
